A study of Homo sapiens with 6 samples.

Results

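The genes described are 10 inflammatory cytokines and chemokines, *IL6*, *IL11*, *LIF*, *IL1A*, *IL1B*, *CXCL1*, *CXCL2*, *CXCL3*, *CXCL8* and *CSF2*, in MDA-MB-231, an established breast cancer line of basal, mesenchymal-like type grown in culture. They were chosen by name and looked up by symbol, with *IL8* accepted for *CXCL8*, and by Ensembl identifier. Of the 10, 6 had a row among the 15917 genes of the deposited table, of which 12408 were protein-coding. The share of all annotated genes that have a row was not computed. This count and those of the gene lists below are therefore descriptions only. Total RNA was sequenced from 3 groups of 2 libraries each, labelled as biological replicates: cells with a control hairpin (shCTRL, genotype WT) and cells with either of 2 hairpins against *RBMS3* (shRBMS3-B3, genotype RBMS3 KD1, and shRBMS3-C3, genotype RBMS3 KD2). According to the methods, hairpins were delivered to luciferase-labeled cells in pLKO.1-Puro lentivirus and the cells were selected with puromycin. By the labels all groups grew in the same serum-containing medium, and no cytokine treatment is named.

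The deposited table holds 1 usable value per gene, the authors' mean normalized count, which is a mean over libraries and carries no value of a single library, no spread and no depth. Which libraries entered that mean is not stated in the sources used here. A legend in the supplement describes the comparison with fewer libraries than the labels list, so the mean may leave out some libraries and 1 of the hairpins. Its other numeric columns are the authors' own comparison of knockdown and control cells and were not used. Nothing below therefore says whether a cytokine differed between *RBMS3* knockdown and control cells, and the level of *RBMS3* in each group, which would check the labels, could not be given. The authors' mean normalized count of *RBMS3* itself was 272, above 43.3% of the rows.

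Cytokines are small secreted proteins that carry signals between cells. The IL-6 family ligands share the signalling receptor chain gp130 (encoded by *IL6ST*), IL-1α and IL-1β act through the IL-1 receptor and MyD88, the CXC chemokines attract neutrophils through CXCR1 and CXCR2, and *CSF2* encodes GM-CSF, a growth factor for myeloid cells. Transcription of many of these genes is induced through NF-κB and AP-1, and their mRNAs are classic examples of unstable transcripts with AU-rich elements (AREs) in the 3′ untranslated region (3′UTR). RBMS3 is an RNA binding protein that the study links to an AUA element in 3′UTRs, so the 3′UTRs of the 10 genes are shown first.

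The AU-rich pentamer ATTTA, counted with overlaps in the 3′UTR of the representative GENCODE transcript, occurred in all 10 genes. The stretches below, 30 bases each and with the pentamers in capitals, are those with the most pentamers in the 3′UTR of each of the 6 listed genes. They are shown because all 10 mRNAs hold this element.

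CSF2: aaaatATTTATTTATTTATTTATTTAagtt

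CXCL2: cttctATTTATTTATTTATTTATTTAtttg

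CXCL8: cctATTTAttATTTAtgtATTTATTTAagc

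IL11: ccagatcttATTTATTTATTTAtttcagta

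LIF: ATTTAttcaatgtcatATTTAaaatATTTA

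IL6: tatttttaATTTAttaatATTTAaatatgt

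On GRCh38 the *CSF2* stretch lies at chr5:132076076-132076105 on the plus strand and holds 5 overlapping pentamers. The *CXCL2* stretch at chr4:74097586-74097615 on the minus strand also holds 5, and that of *CXCL8* at chr4:73743111-73743140 on the plus strand holds 4. The stretches of *IL11* (chr19:55365943-55365972, minus strand) and *LIF* (chr22:30240522-30240551, minus strand) hold 3 each. *IL6* has 2 in its stretch at chr7:22731704-22731733 on the plus strand. All 6 stretches are exonic, in the 3′UTR, and the *LIF* stretch begins 3100 bases after the stop codon in a 3′UTR of 3198 bases.

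By mean normalized count, not corrected for length, the 6 listed genes fell into a high pair and a low group of 4. *IL11*, a gp130 cytokine known for its part in bone metastasis of breast cancer, had the highest of their levels. The authors' mean normalized count was 1300 for *IL11*, above 80.0% of all rows. *LIF*, which keeps mouse embryonic stem cells undifferentiated and signals through LIFR and gp130, had a mean normalized count of 1103, above 76.6% of the rows. These 2 genes made up 91.5% of the summed mean normalized count of the 6.

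The other listed genes lay below the lower quartile of the table, 102. The authors' mean normalized count was 93.3 for *IL6*, the inducer of the acute phase response, above 23.6% of the rows. *CSF2* had a mean normalized count of 58.9, above 15.9% of the rows. The neutrophil chemokine genes *CXCL2* and *CXCL8* had 36.1 and 34.3, above 6.73% and 5.55% of the rows, close to the lowest value listed, 26.7. Against the median row, 364, *IL11* was 3.57 times and *CXCL8* 0.0942 times as high. In bulk RNA a low level in every cell and a high level in few cells cannot be told apart.

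**Figure D1:**
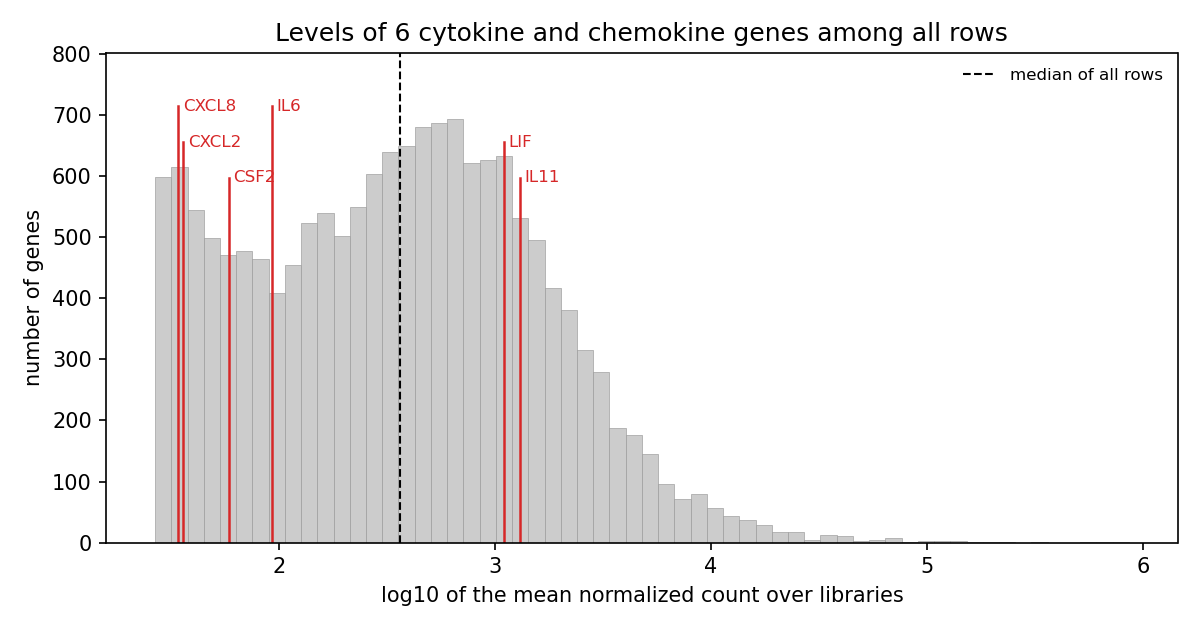
Histogram of the log10 mean normalized count of all 15917 rows (x axis) against the number of genes (y axis), with a red line for each of the 6 listed genes and a dashed line at the median of all rows. *IL11* and *LIF* stand to the right of the median, and *IL6*, *CSF2*, *CXCL2* and *CXCL8* to its left.

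Longer mRNAs collect more reads, so genes were compared with each other per kilobase of the representative mRNA. On this scale *IL11* (chr19:55364382-55370463, minus strand), with an mRNA of 2378 bases, had 547 mean normalized counts per kilobase, and *LIF* (chr22:30240453-30246759, minus strand), with 3871 bases, had 285. The ratio of *IL11* to *LIF* was 1.18 without and 1.92 with this correction. *IL6* (chr7:22725884-22732002) and *CSF2* (chr5:132073789-132076170), both on the plus strand, whose mRNAs measure 1127 and 788 bases, had 82.8 and 74.7 per kilobase, a ratio of 1.11. *CXCL2* followed with 32.4 per kilobase and *CXCL8* with 20.9, so that the highest and the lowest of the 6 were 26.2 times apart. The order of the 6 genes was the same on both scales. Whether neighbours in it, such as *IL6* and *CSF2*, differ beyond the spread between libraries cannot be said, since no spread is available. Among protein-coding rows, *IL11* and *LIF* lay above the median level per kilobase of 152 and the other 4 below it. The step between the pair and the other 4 was smaller on this scale. The ratio of *LIF* to *IL6* was 11.8 without and 3.44 with the correction. Per kilobase, *IL6* and *CSF2* lay above 34.2% and 31.4% of the protein-coding rows.

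*IL1A*, *IL1B*, *CXCL1* and *CXCL3* had no row under either symbol or identifier, and their levels were not analysed here. Why a gene has no row was not examined, so a missing row is not read as a low level, here or below. *IL1A* and *IL1B* encode the IL-1 receptor ligands, and *CXCL1* and *CXCL3* are close relatives of *CXCL2*. The chemokine genes of the set lie on chromosome 4 in the order *CXCL8*, *CXCL1*, *CXCL3*, *CXCL2*, over 359 kb from 73740519 to 74099196. *CXCL8* and *CXCL2* at the ends were listed, and *CXCL1* and *CXCL3* between them were not. The order covers the genes of the set only. *IL1A* and *IL1B* lie within 62.9 kb of each other on chromosome 2. Reads from near-identical genes can be split between them. Of all windows of 75 bases, the read length, in the *CXCL2* mRNA, 2.21% occurred unchanged in that of *CXCL3* and 0.288% in that of *CXCL1*, and none was shared between *CXCL8* and the others.

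Of 12 genes fixed as receptors of these ligands and, with *OSMR*, of the related ligand OSM, 8 were listed. The highest mean normalized counts were those of *IL6ST* (1811), *OSMR* (1332) and *LIFR* (654), which encode gp130 and signalling partners of it. The specific chains for IL-6 and IL-11 were lower, with 53.2 for *IL6R* and 54.1 for *IL11RA*. Per kilobase, *IL11* at 547 exceeded both *IL6ST* at 201 and *IL11RA* at 31.4. *CXCR1* and *CXCR2*, the receptors of the listed chemokines, *CSF2RB*, the signalling chain of the GM-CSF receptor, and the decoy receptor *IL1R2* had no row. *CSF2RA*, the binding chain for GM-CSF, was listed with 491. The IL-1 receptor chains *IL1R1* and *IL1RAP* were listed too, with 68.4 and 199. Per kilobase the receptors stood in another order, with *CSF2RA* highest at 271. *OSMR* followed with 241, *IL6ST* with 201 and *LIFR* with 62.0, the last below the protein-coding median of 152.

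Of 23 related ligands fixed as a list, 8 had a row, and their mean normalized counts ran from 47.4 to 2930. The highest were *CSF1* (2930), the macrophage growth factor, *IL18* (575), an IL-1 family cytokine, and *CLCF1* (462), another gp130 ligand. The 15 with no row were *TNF*, *OSM*, *IL1RN*, *IL33*, *IL32*, *IL7*, *CCL2*, *CCL20*, *CXCL5*, *CXCL6*, *CXCL10*, *CXCL12*, *CXCL16*, *CSF3* and *TSLP*. In this list 3 of the 8 were at or above the median row of 364, *CLCF1* at the 55.6th percentile of the rows, against 2 of the 6 cytokine genes. *CLCF1* lay below the median of protein-coding rows, 526.

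**Figure D2:**
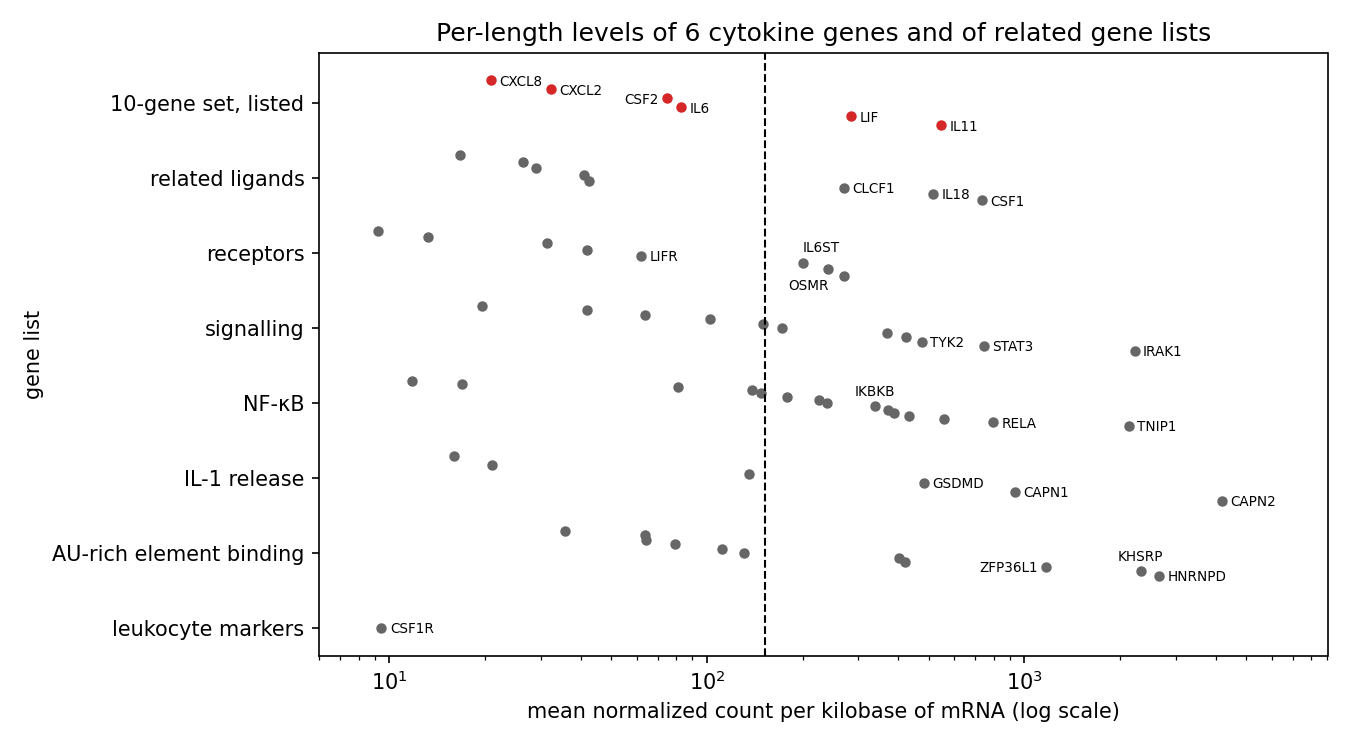
Mean normalized count per kilobase of mRNA (x axis, log scale) for the 6 listed genes (red) and for the listed genes of 7 other lists (gray), with a dashed line at the median of protein-coding rows; names are given for the 6 genes and for up to 3 genes with the highest mean normalized count of each list. *IL11* and *LIF* lie right of the median, and the chemokines *CXCL2* and *CXCL8* far to the left.

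All 11 genes fixed for signalling below these receptors were listed, from 138 for *JAK2* to 7961 for *IRAK1*, with *STAT3* at 3663 and *TYK2* at 2015. All 15 fixed NF-κB genes were listed too, from 78.8 for *TNFAIP3* to 6108 for *TNIP1*, both of which restrain NF-κB signalling. The subunit gene *RELA* had 2002 and the kinase gene *IKBKB* 1330. The 6 genes linked to IL-1 processing and release were listed, although *IL1A* and *IL1B* were not. They ran from 31.8 for *CASP1*, the protease that cleaves pro-IL-1β, to 14103 for the calpain gene *CAPN2*, with 2747 for *CAPN1* and 830 for *GSDMD*.

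The 11 genes of proteins that bind AREs or degrade cytokine mRNAs were all listed, 7 of them at or above the median row of 364. The median of protein-coding rows alone was higher, 526, so this count is generous for protein-coding genes. The highest were *KHSRP* (9926), *HNRNPD* (8135) and *ZFP36L1* (3537), whose products are known to promote decay of ARE mRNAs. The others ran from 78.1 for *ARID5A* to 2544 for *ELAVL1*, which encodes the stabilizing protein HuR.

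The label of the line was set beside genes already known as markers of this type of line. A mean over libraries cannot check the label of a single library. The 6 markers of a mesenchymal-like basal line were all listed and above the median row, from 1050 for *PLAUR* to 69335 for *VIM*, with *AXL* at 35387 and *MSN* at 13493. Of 6 luminal or epithelial markers, *ESR1*, *PGR* and *FOXA1* had no row, and *GATA3* (171), *EPCAM* (107) and *CDH1* (31.6) were below the median. Leukocytes are another source of these cytokines. Of the leukocyte markers reported, *CSF1R* was listed, at 36.1, and *PTPRC*, *CD14*, *LYZ*, *CD3E* and *ITGAM* had no row.

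The 3′UTRs were then set beside those of all 12270 listed protein-coding genes with a 3′UTR of at least 9 bases. The pentamer occurred in 73.9% of these and in 10 of the 10 cytokine genes, and the overlapping nonamer TTATTTATT in 9.87% of these and in 8 of the 10. Because these mRNAs are classic examples of ARE transcripts, the shares and densities here are a description and not a test. *IL6* and *IL1A* were the genes without the nonamer. Per kilobase of 3′UTR, the median was 8.80 pentamers over the 10 genes and 1.73 over all listed genes. *CSF2* had 8 pentamers in 318 bases, or 25.2 per kilobase, a density above that of 99.96% of the genes. The densities were 14.1 per kilobase in *IL6*, with 6 pentamers, and 14.0 in *CXCL2*, with 10, both above 99.6% of the genes. *CXCL3* (10.4), *IL1B* (9.84), *CXCL1* (7.77) and *CXCL8* (7.19) lay above between 97.1% and 99.2% of the genes. *IL1A*, with 5 pentamers in 1142 bases, had 4.38 per kilobase, above 87.6% of the genes.

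The 2 abundant transcripts had the lower pentamer densities among the listed genes. *IL11* had 9 pentamers in 1625 bases, 5.54 per kilobase, above 93.3% of the genes. *LIF* had 7 in 3198 bases, 2.19 per kilobase, above 58.4%, and its 3′UTR had 43.3% A+U, a share above that of only 12.9% of the genes. At the other end, *IL6* and *CXCL8* had 71.8% and 71.3% A+U. The nonamer count did not follow this order. It was 6 in *IL11* and 2 in *LIF*, against 5 in *CXCL2*, 3 in *CSF2*, 1 in *CXCL8* and 0 in *IL6*. With 6 measured genes these orders are a description.

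The AUA element was searched as the study's methods write it, that is A, G or T, then A or T, then ATA, then A or T, then A, on the mRNA strand. It occurred in all 10 genes and in 85.1% of the listed genes. The element can contain the polyadenylation signal AATAAA, and in *IL11*, *LIF*, *CXCL2* and *CXCL3* the only match did. The study's methods name AATAAA as the most significant motif among the binding sites mapped for tagged RBMS3. Matches over it are therefore counted apart here and not discounted. Matches clear of that signal were left in 6 of the 10 genes, namely *IL6*, *IL1A*, *IL1B*, *CXCL1*, *CXCL8* and *CSF2*, against 61.9% of all genes. The density of the element was 7.06 per kilobase in *IL6*, with 3 matches, above 90.1% of the genes, and 0.313 in *LIF*, above 15.5%. The median density was 3.52 per kilobase over the 10 genes, 2.27 over the 6 listed ones and 2.45 over all listed genes, so that the 6 lay below the background and the 10 above it. The median number of matches was 2 over the 10, 1 over the 6 and 3 over all listed genes.

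The elements of the listed genes are shown with 10 bases on either side and the match in capitals. Those of the first 3 are the first match clear of the polyadenylation signal, and the others are matches over it.

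IL6: tatattgtatTTATATAatgtataaat

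CXCL8: aataatttttAAATATAaggattttcc

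CSF2: tcagtaatatTTATATAtttatatttt

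IL11: attttaaaaaTAATAAAcactattttt

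LIF: aaagagaaatGAATAAAgaatctactc

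CXCL2: aagaacaggaAAATAAAatatttaaaa

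The matches begin 372 bases after the stop codon in *IL6* (stretch at chr7:22731935-22731961), 249 in *CXCL8* (chr4:73742703-73742729) and 206 in *CSF2* (chr5:132076048-132076074). In *IL11* the match begins 1597 bases after the stop codon (chr19:55364394-55364420), in *LIF* 3179 (chr22:30240456-30240482) and in *CXCL2* 697 (chr4:74097043-74097069), near the end of each 3′UTR. A match gives no evidence of binding by RBMS3.

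**Figure D3:**
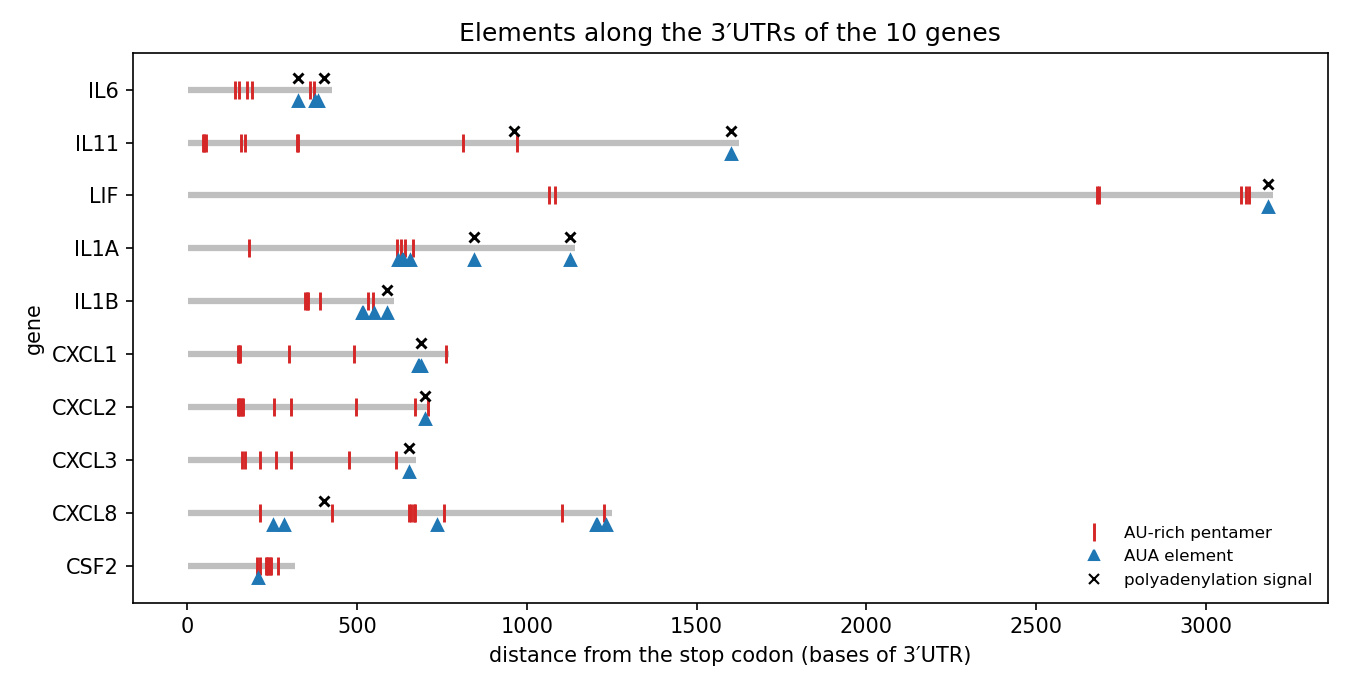
Maps of the 3′UTRs of the 10 genes (y axis) by distance from the stop codon in bases (x axis); gray bars are 3′UTRs drawn to scale, red ticks AU-rich pentamers, blue triangles AUA elements and black crosses polyadenylation signals. In *IL11*, *LIF*, *CXCL2* and *CXCL3* the single AUA element sits on a polyadenylation signal near the end.

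Promoter windows from RefSeq on GRCh38.p14, 250 bases before to 50 after the start, were found for 9 of the 10 genes and not for *LIF*. The NF-κB consensus of 10 bases, searched on both strands, occurred in the windows of *IL6*, *CXCL1*, *CXCL2* and *CXCL3* and in 5.91% of all 35116 windows. The AP-1 motif TGACTCA, which read from the other strand is TGAGTCA, occurred in those of *IL11*, *IL1A* and *CXCL8* and in 4.95% of all. The matches of the 2 measured genes with an NF-κB match and of the 2 with an AP-1 match are shown in capitals, because these factors are the known inducers of the genes.

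IL6: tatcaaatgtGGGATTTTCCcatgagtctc

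CXCL2: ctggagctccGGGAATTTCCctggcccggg

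IL11: gcagggagggTGAGTCAggatgtgtca

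CXCL8: ggaagtgtgaTGACTCAggtttgccct

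The NF-κB match begins 73 bases before the start in *IL6* (stretch at chr7:22727117-22727146, plus strand) and 78 before it in *CXCL2* (chr4:74099254-74099283, minus strand). The AP-1 match begins 96 bases before the start in *IL11* (chr19:55370543-55370569, minus strand) and 137 before it in *CXCL8* (chr4:73740422-73740448, plus strand). Side by side with the levels, *IL6* and *CXCL2*, with an NF-κB match in this window, had mean normalized counts of 93.3 and 36.1. *IL11*, *CSF2* and *CXCL8*, with no match to this consensus, had 1300, 58.9 and 34.3. A looser form of the consensus, which 58.7% of all windows hold, also matched in *CSF2* and *CXCL8*. A window without a match may still hold a site that the consensus misses. A match is a description of these letters and not a site in use.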

How the data were processed

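MDA-MB-231 total RNA (6 libraries, 3 groups) was prepared by the authors with a stranded total RNA kit for low input. The submitters' processing notes name Salmon, DESeq2 and hg38, with versions not given. The authors deposited 1 table, from which the mean normalized count per gene (a signal averaged over libraries) was used. Its fold changes, standard errors, test statistics and p-values are the authors' comparison and were not used. No library's depth is given, so no errors, intervals or tests were computed, and groups were not compared.

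Members and lists were chosen with earlier results of these data known. Every member was named, and of each other list the range, the top 3 and the genes with no row. *IL11RA*, *IL1R1*, *IL1RAP*, *CSF2RA* and *ELAVL1* were added after their values were seen. One leukocyte marker is not reported here. Identifiers were matched to GENCODE release 44 on GRCh38 (15829 matched, 88 did not). The representative transcript was MANE Select or Ensembl canonical. Motif counts included overlaps and were tested on simulated sequences, and 30 sequences were checked against the genome. Python 3.11.15 and matplotlib 3.10.9 were used.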

Additional observations from a re-analysis of the deposited data

How the results depend on the processing

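Over 5 counts and 8 alternatives, 7 alternatives left the count within 1.5 times. The count of genes with an AUA element was 10, and 6 when matches over AATAAA were left out, since this alternative removes such matches by construction. The count at or above the median level stayed at 2 of 6 with protein-coding rows alone as background, and per kilobase with the longest mRNA. The count with a pentamer was 10 with the longest 3′UTR, and 8 had the nonamer. The count with an NF-κB match was 4, also on the gene strand alone, and 6 with a looser form that 58.7% of all promoter windows hold. The median per kilobase was taken over protein-coding rows from the start, so that background was not varied further. Leaving out a library, another normalization and another filter on low counts were not run, because the table has no value per library. No paired analysis was possible because each gene has a single value averaged over libraries. Whether a level near 26.7, the lowest listed, differs from that of genes with no row cannot be said. Why those genes have no row was not examined.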
